A study of Mus musculus with 15 samples.

Results

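Fos, Fosb, Jun, Junb, Atf3, Egr1, Ier3, Klf2, Klf4 and Klf6 were followed in mouse adrenal glands before, at the end of and after a course of dexamethasone, a synthetic glucocorticoid. The 10 genes were taken by symbol from the platform's probe annotation. Each had 1 probe set, so that they make up 10 of the 21439 genes with 1 symbol and 10 of the 32736 probe sets on the array. The 15 one-colour Affymetrix arrays carried RNA of whole adrenals of wild-type male C57BL/6J mice, with each array titled as a replicate of its own. The groups were 4 arrays from mice taken before dexamethasone (control), 3 from mice given the drug in their water for 14 days and taken as it was stopped (withdrawal), 4 from mice 3 days after the drug was stopped (day 3) and 4 from mice 7 days after it was stopped (day 7). All groups carry the label WT and an age of 6 weeks. The labels give neither the hour of collection nor the handling before it, and whether glands were pooled is not stated. Controls were taken before treatment and no untreated mice were collected later, so that the drug, the recovery and the passing of days cannot be told apart in a comparison with control.

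Immediate early genes are switched on within minutes of a hormone, growth factor or stress signal, from factors already present in the cell, and their transcripts are short-lived. Fos, Fosb, Jun and Junb encode leucine zipper proteins that pair to form the transcription factor AP-1, and in adrenocortical cells several of them are known to be induced by ACTH, the pituitary hormone that dexamethasone suppresses. Atf3 encodes a stress-induced leucine zipper protein of the ATF/CREB family, Egr1 a zinc finger factor induced by growth factor signalling, and Ier3 a short-lived protein that affects cell survival. Klf2, Klf4 and Klf6 are Krüppel-like zinc finger factors: Klf2 and Klf4 are known for keeping blood vessel endothelium quiescent and for restraining activation of monocytes and macrophages, and Klf6 is known as a gene induced by tissue injury.

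The levels are log2 array signals. The median probe set of an array lay between 1.55 and 1.64, and the lower quartile between 0.95 and 1.03. A level near or under that median is taken as the floor, where a further fall can hardly be seen. Fosb lay at this floor in control, on the day 3 arrays and on 3 of 4 day 7 arrays, and Klf2, Klf4, Atf3 and Fos lay low, so that their differences may be understated. All 7 markers of the adrenal cortex were well above the floor in every group, and the 4 kidney markers had group means under 2 in all groups. Of the 10 genes, Atf3 (adjusted p = 0.0202), Klf6 (adjusted p = 0.0328) and Klf2 (adjusted p = 0.0339) differed somewhere among the 4 groups by limma's moderated F test with Benjamini-Hochberg adjustment over all genes, where 2.63% of all genes passed. In 8 of the 15 fits without 1 array (control replicates 1 and 3, withdrawal replicates 1 and 2, day 3 replicates 3 and 4, day 7 replicates 1 and 2) the count was 1 of the 10 genes. Klf4 came next (adjusted p = 0.0756), then Fosb (0.198), Jun (0.464), Junb (0.482), Egr1 (0.535), Fos (0.585) and Ier3 (0.682).

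**Figure D1:**
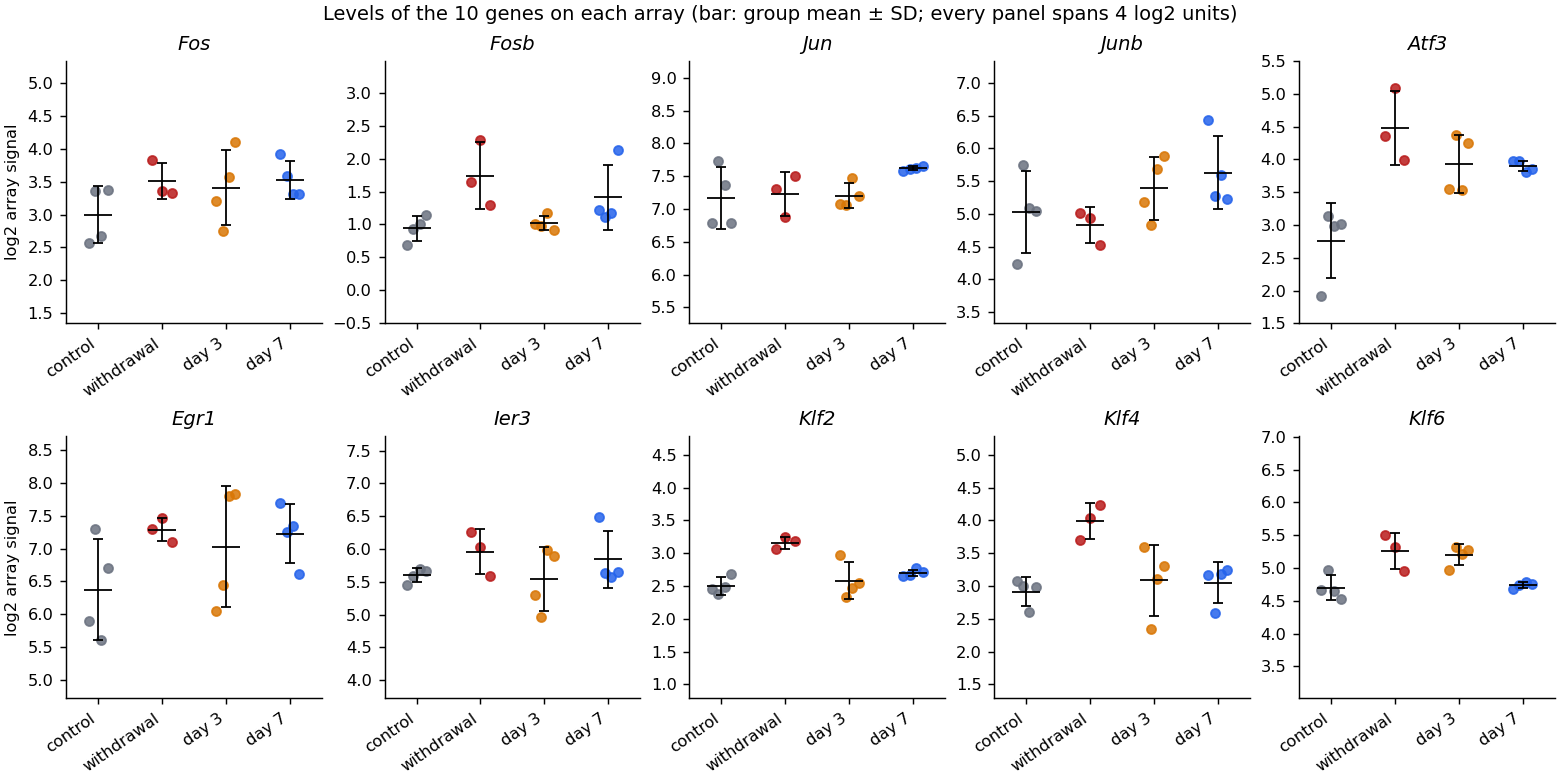
Log2 array signal (vertical axis) of each gene on each of the 15 arrays, by group, with the group mean ± SD as a black bar; every panel spans 4 log2 units. All 3 withdrawal arrays lie above all 4 control arrays for Atf3, Klf2, Klf4 and Fosb, and the Egr1 arrays of control spread from 5.60 to 7.30.

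At withdrawal, Atf3, Klf2, Klf4 and Klf6 were higher than in control, and the other 6 genes did not pass the test. Thus 4 of the 10 rose and 0 fell, where 2.49% of all genes rose and 1.81% fell (limma, adjusted p under 0.05). The median of the 10 differences was 0.61 log2 and that of all genes was -0.01. The fit placed 9 of the 10 differences above 0, Junb being the exception. Groups did not overlap for Atf3, Klf2, Klf4 and Fosb, all higher at withdrawal, against 8.15% of all genes higher without overlap.

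Atf3 (probe set 17231033) had the largest difference of the 10. Its levels were 4.36, 5.09 and 3.99 on the withdrawal arrays, against 1.91, 3.13, 2.98 and 3.02 on the control arrays. The lowest withdrawal array thus stood above the highest control array, and control replicate 1 lay below the other controls. Means were 4.48 ± 0.56 (SD, n = 3) at withdrawal and 2.76 ± 0.57 (n = 4) in control, a difference of 1.73 ± 0.30 log2 (standard error) or 3.31-fold (limma, adjusted p = 0.00465). Atf3 passed in all 7 fits that leave out 1 of these arrays, with differences from 1.42 (without withdrawal replicate 2) to 1.97 (without withdrawal replicate 3), and it was 1.44 without control replicate 1.

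Klf2 (probe set 17502440) read 3.07, 3.24 and 3.19 at withdrawal, against 2.46, 2.38, 2.48 and 2.68 in control. The 3 withdrawal arrays lay within a narrow band and above every control. The difference was 0.67 ± 0.13 log2 or 1.58-fold (limma, adjusted p = 0.00864), and it passed in all 7 fits without 1 array. Klf4 (probe set 17425401) read 3.70, 4.03 and 4.23 at withdrawal, against 3.08, 3.00, 2.60 and 2.98 in control. Again no control array reached the lowest withdrawal array, and the difference was 1.07 ± 0.25 log2 or 2.10-fold (limma, adjusted p = 0.0226). The adjusted p of Klf4 was 0.0635 without control replicate 3, 0.0858 without withdrawal replicate 2 and 0.0893 without withdrawal replicate 3.

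Klf6 (probe set 17285000) read 5.50, 5.32 and 4.96 at withdrawal, against 4.66, 4.97, 4.65 and 4.52 in control. The lowest withdrawal array lay level with the highest control array, so that the groups overlapped. The difference was 0.56 ± 0.13 log2 or 1.48-fold (limma, adjusted p = 0.029). This call was lost in 5 of 7 fits without 1 array, with adjusted p of 0.066 without control replicate 1, 0.0662 without control replicate 3, 0.0794 without control replicate 4, 0.125 without withdrawal replicate 1 and 0.11 without withdrawal replicate 2. It was also lost with only the 2 groups in the fit (0.12) and with each array centred on the median of the genes with 1 symbol (0.0568).

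Since these 4 genes rose together, the 250 bases before their annotated starts are shown, from RefSeq on build GRCm38.p6, 5′ to 3′ along the gene's strand. Capitals mark matches on either strand to the short cAMP response element TGACG, to the EGR motif GCGNGGGCG and to the GC box GGGCGG, which can overlap the EGR motif. GC boxes are bound by the Sp and Krüppel-like factors.
Atf3 (chr1:191183334-191183583, minus strand): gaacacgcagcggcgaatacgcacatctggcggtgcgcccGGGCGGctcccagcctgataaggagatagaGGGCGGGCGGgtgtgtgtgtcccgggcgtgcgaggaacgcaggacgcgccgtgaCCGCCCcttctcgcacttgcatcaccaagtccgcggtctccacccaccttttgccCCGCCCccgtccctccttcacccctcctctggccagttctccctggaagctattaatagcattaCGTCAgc
Klf2 (chr8:72318812-72319061, plus strand): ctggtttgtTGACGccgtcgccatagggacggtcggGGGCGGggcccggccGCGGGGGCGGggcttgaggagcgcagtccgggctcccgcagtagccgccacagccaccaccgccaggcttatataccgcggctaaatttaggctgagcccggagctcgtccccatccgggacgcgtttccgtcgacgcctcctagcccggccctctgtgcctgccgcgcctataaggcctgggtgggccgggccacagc
Klf4 (chr4:55532476-55532725, minus strand): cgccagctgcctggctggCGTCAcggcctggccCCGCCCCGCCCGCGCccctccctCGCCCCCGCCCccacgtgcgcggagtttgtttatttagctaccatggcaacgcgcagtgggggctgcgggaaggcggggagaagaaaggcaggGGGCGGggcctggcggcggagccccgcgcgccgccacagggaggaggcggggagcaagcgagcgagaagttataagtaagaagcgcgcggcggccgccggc
Klf6 (chr13:5861239-5861488, plus strand): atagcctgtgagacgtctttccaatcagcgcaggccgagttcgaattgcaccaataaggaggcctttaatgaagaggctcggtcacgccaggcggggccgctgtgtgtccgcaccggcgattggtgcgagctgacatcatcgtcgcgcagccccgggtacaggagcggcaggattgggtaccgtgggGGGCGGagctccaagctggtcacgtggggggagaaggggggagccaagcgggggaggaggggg
Atf3 held a TGACG match on the reverse strand 7 to 3 bases before its start and 5 GC boxes. Klf2 and Klf4 each held 1 TGACG match, and EGR motifs numbered 1 in Klf2 and 2 in Klf4, all overlapped by GC boxes. Klf6 held 1 GC box and none of the other motifs. A promoter window was at hand for 9 of the 10 genes, and for Egr1 there was none. Over the 9 windows TGACG was found in 6, against 17.8% of all 32851 promoter windows of this length, the EGR motif in 3, against 4.70%, and the GC box in 8, against 32.7%. The full cAMP response element TGACGTCA (1.55% of all windows), the AP-1 motif TGANTCA (6.75%) and the CArG box (1.47%), the binding sequence of serum response factor, were found in none of the 9 windows, and the TATA box TATAAA in 1, that of Fos, against 12.4%. These matches describe the letters of the windows alone. The 32851 windows were not matched to the 9 for their share of G and C. TGACG, the EGR motif and the GC box all hold CG, and the part of base composition in their counts was not tested. Variants of the motifs and bases further from the start were not searched.

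The AP-1 genes did not pass at withdrawal. Fosb (probe set 17487211) read 1.65, 2.29 and 1.29 at withdrawal, against 0.69, 0.93, 1.01 and 1.14 in control, a difference of 0.80 ± 0.24 log2 (limma, adjusted p = 0.0808). Its withdrawal arrays stood above its controls, but within about 1 unit of the floor; without withdrawal replicate 3 the adjusted p was 0.0406. Fos (probe set 17277387) read 3.83, 3.36 and 3.33 at withdrawal, against 2.57, 3.36, 2.68 and 3.37 in control. Its difference of 0.51 ± 0.29 did not pass (limma, adjusted p = 0.396), with a 95% interval from -0.10 to 1.12. Jun (probe set 17427312) averaged 7.23 ± 0.33 at withdrawal and 7.17 ± 0.47 in control, with a 95% interval of the difference from -0.38 to 0.50; the sign of the difference turned (-0.051) with each array centred on the median of the genes with 1 symbol. Junb (probe set 17511259) averaged 4.83 ± 0.27 at withdrawal and 5.03 ± 0.63 in control, with an interval from -0.94 to 0.54.

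Egr1 (probe set 17349514) read 7.30, 7.46 and 7.10 at withdrawal, against 5.89, 7.30, 5.60 and 6.70 in control. The withdrawal arrays were close to each other, while the controls spanned 1.70 log2 and their highest array reached the withdrawal level. The difference of 0.91 ± 0.45 log2 did not pass (limma, adjusted p = 0.323; 95% interval -0.04 to 1.87). Ier3 (probe set 17337228) read 6.26, 6.03 and 5.59 at withdrawal, against 5.45, 5.58, 5.69 and 5.66 in control, a difference of 0.36 ± 0.26 (adjusted p = 0.528). An array at withdrawal fell within the control range, and the groups overlapped.

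**Figure D2:**
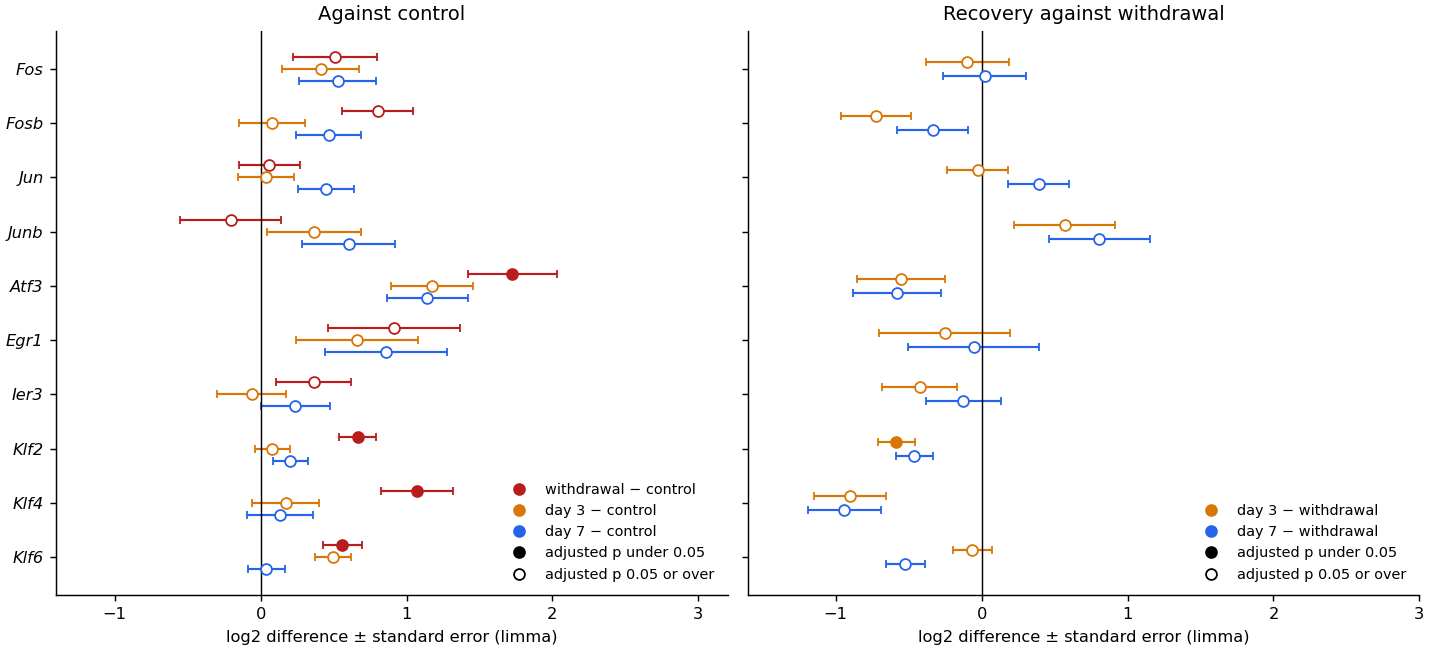
Log2 difference ± standard error of the limma model for each gene, withdrawal, day 3 and day 7 against control on the left and day 3 and day 7 against withdrawal on the right; filled points have an adjusted p under 0.05. Filled points are Atf3, Klf2, Klf4 and Klf6 at withdrawal against control and Klf2 at day 3 against withdrawal.

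At day 3, Klf2 was lower than at withdrawal and the other 9 genes did not pass. That is 1 of 10 lower and 0 higher, where 0.886% of all genes were lower and 1.37% higher. Klf2 read 2.97, 2.33, 2.47 and 2.55 at day 3, against 3.07, 3.24 and 3.19 at withdrawal. Even the highest day 3 array stayed below the lowest withdrawal array, and the mean of 2.58 ± 0.28 at day 3 was lower by -0.58 ± 0.13 log2 than at withdrawal (limma, adjusted p = 0.0271). The call held in 1 of 7 fits without 1 array, that without day 3 replicate 1; in the other 6 the adjusted p ran up to 0.114, and it was 0.156 with only the 2 groups in the fit. Leaving out day 3 replicate 1 also brought Klf4 past the threshold (adjusted p = 0.0398).

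Klf4 read 3.60, 2.34, 3.10 and 3.30 at day 3, against 3.70, 4.03 and 4.23 at withdrawal. The groups did not overlap and the difference was -0.90 ± 0.25, with an adjusted p of 0.0771. Fosb differed by -0.73 ± 0.24 (adjusted p = 0.162), again without overlap, its 4 day 3 arrays lying at the floor between 0.92 and 1.17. Groups thus did not overlap for 3 of the 10 genes, all lower at day 3, where 5.73% of all genes were lower without overlap. Klf6 kept close to its withdrawal level, with 4.97, 5.32, 5.22 and 5.27 at day 3 and a difference of -0.06 ± 0.13 (95% interval -0.35 to 0.22). Atf3 read 3.55, 4.37, 3.54 and 4.25 at day 3, overlapping withdrawal, with a difference of -0.55 ± 0.30 (adjusted p = 0.457). Fos, Jun, Egr1 and Ier3 had adjusted p from 0.511 to 0.98, and Junb differed by 0.57 ± 0.35 (0.515).

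At day 7 against withdrawal, 0 of the 10 genes passed in limma, where 0.905% of all genes were lower and 0.980% higher. At an unadjusted p under 0.05 there were 4 of the 10, Klf2, Klf4 and Klf6 lower and Junb higher, where 13.5% of all genes had one. The means of Klf2, Klf4 and Klf6 were below those at withdrawal, with ranges that did not overlap. Klf4 read 3.17, 2.59, 3.18 and 3.24 at day 7 and differed by -0.94 ± 0.25 from withdrawal (limma, adjusted p = 0.0701). Klf6 read 4.68, 4.74, 4.78 and 4.76 at day 7, an SD of 0.05, and differed by -0.52 ± 0.13 (adjusted p = 0.0652; 0.0207 without withdrawal replicate 3). Klf2 read 2.65, 2.67, 2.77 and 2.72 at day 7 and differed by -0.46 ± 0.13 (adjusted p = 0.0874). Atf3 read 3.97, 3.98, 3.81 and 3.85 at day 7, below the 3 withdrawal arrays but barely, the lowest of these being 3.99. Its difference was -0.58 ± 0.30 (limma, adjusted p = 0.438). Lower levels without overlap were thus seen for 4 of the 10, where 5.89% of all genes had them. Jun and Junb went the other way without overlap, against 6.46% of all genes: Junb read 6.43, 5.27, 5.59 and 5.23 at day 7, against 5.02, 4.93 and 4.52 at withdrawal (0.81 ± 0.35, adjusted p = 0.314), and Jun read 7.58, 7.61, 7.62 and 7.66, against 7.30, 6.87 and 7.51 (0.39 ± 0.21, adjusted p = 0.453).

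Set against control, 0 of the 10 genes passed at day 3 or at day 7 in limma, where 0.131% and 0.0187% of all genes passed. At an unadjusted p under 0.05 there were 2 of the 10 at each time, where 10% of all genes had one at day 3 and 5.95% at day 7. Atf3 stood above control without overlap at both times. Its day 3 mean was 3.93 ± 0.44, higher by 1.17 ± 0.28 log2 than the control mean (limma, adjusted p = 0.116), and its day 7 mean was 3.90 ± 0.08, higher by 1.14 ± 0.28 (adjusted p = 0.539). Klf6 at day 3 lay at or above the highest control array (0.50 ± 0.13, adjusted p = 0.138), and at day 7 its difference from control was 0.04 ± 0.13 (95% interval -0.23 to 0.30). Klf2 differed from control by 0.08 ± 0.12 at day 3 and by 0.20 ± 0.12 at day 7, and Klf4 by 0.17 ± 0.23 and 0.13 ± 0.23. Higher levels without overlap were seen for 2 of the 10 genes at day 3 and 1 at day 7, where 2.75% and 1.75% of all genes had them. Of the 10 differences from control, 9 lay above 0 at day 3 (median 0.27 log2) and 10 at day 7 (median 0.46). The medians of all genes were 0 and 0.01, and 51.5% of all genes lay above 0 at day 7. These comparisons share the control arrays with each other and with the comparison at withdrawal. Fos and Egr1 had higher means than control at each time, Egr1 by 0.66 ± 0.42 at day 3 and 0.86 ± 0.42 at day 7, and Fos by 0.41 ± 0.26 and 0.53 ± 0.26, all with overlapping groups and adjusted p from 0.658 to 0.841.

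Between day 7 and day 3, 0 of the 10 genes and 0% of all genes passed in limma, and 2 of the 10, Klf6 and Jun, had an unadjusted p under 0.05, as did 7.07% of all genes. Klf6 was at 4.74 ± 0.05 at day 7 and 5.20 ± 0.16 at day 3 (-0.46 ± 0.13, adjusted p = 0.384), without overlap, which 1.74% of all genes showed in that direction. Jun was at 7.62 ± 0.03 at day 7 and 7.20 ± 0.19 at day 3 (0.42 ± 0.19, adjusted p = 0.702), with 1.81% of all genes higher without overlap. The other 8 genes had overlapping groups. By mean level, all of Atf3, Klf2, Klf4 and Klf6 had control lowest and withdrawal highest. Day 3 stood next to withdrawal for Atf3, Klf4 and Klf6, and day 7 stood next to it for Klf2. Neighbouring groups in these orders did not differ past the threshold.

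Within a group, 8 of the 10 genes varied more between arrays than the median gene. The pooled SD within groups was 0.68 log2 for Egr1, 0.52 for Junb, 0.45 for Atf3, 0.42 for Fos, 0.38 for Ier3, 0.35 for Fosb and 0.30 for Jun, against a median of 0.19 over all genes. Only 0.798% of all genes had a larger SD than Egr1 and 2.12% a larger one than Junb. The pooled SD was 0.36 for Klf4, 0.18 for Klf6 and 0.17 for Klf2, and 57.2% and 62.7% of all genes varied more than Klf6 and Klf2. The day 3 arrays fell apart for Egr1, with 6.05, 6.45, 7.81 and 7.83. Replicates 3 and 4 were the higher pair there, and the same pair was the higher for Fos (3.57 and 4.11), Junb (5.69 and 5.88) and Ier3 (5.99 and 5.90). Day 3 replicate 2 was the lowest array for 6 of the 10 genes, but the highest for Atf3 and Klf6. In control, replicate 1 was the lowest for 6 genes and replicate 2 the highest for 5. At day 7, replicate 1 was the highest for Fos, Junb, Egr1 and Ier3, and at withdrawal, replicate 3 was the lowest for 7 genes.

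**Figure D3:**
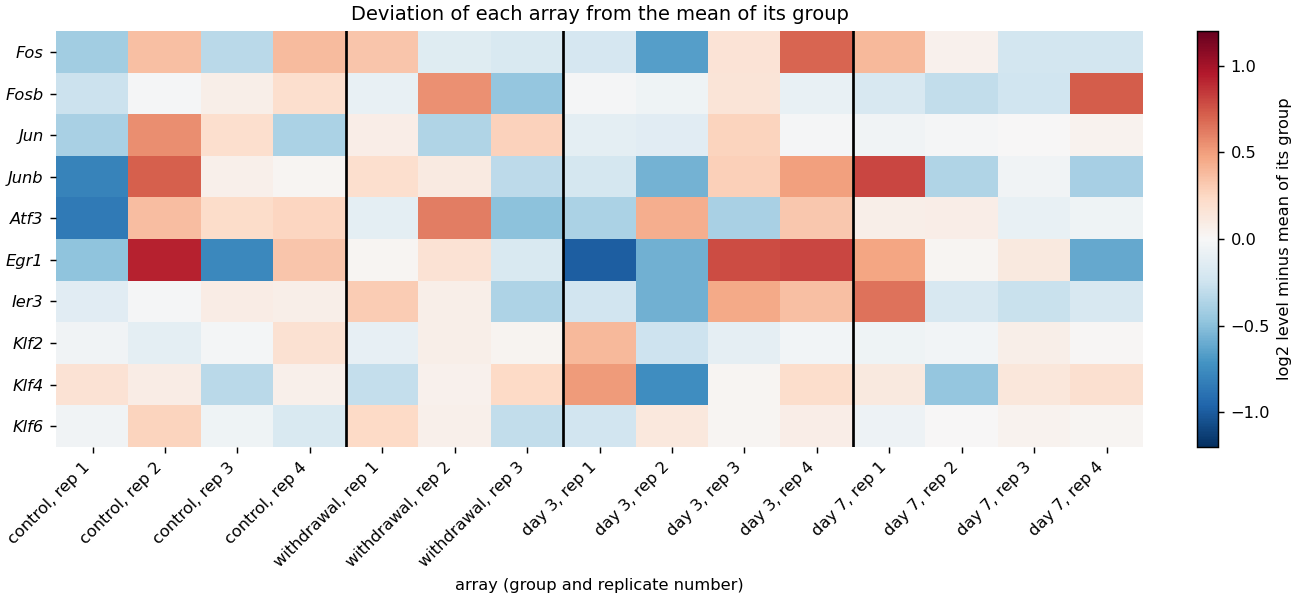
Log2 level of each gene on each array minus the mean of the array's group (colour), arrays ordered by group and replicate. Egr1, Fos, Junb and Ier3 are above their group means on day 3 replicates 3 and 4 and below them on day 3 replicates 1 and 2.

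Markers of other cells moved with some of these groups. Over all genes, 2.49% were higher and 1.81% lower at withdrawal against control. Against withdrawal, 0.886% were lower and 1.37% higher at day 3, and 0.905% lower and 0.980% higher at day 7. Against control, 0.131% passed at day 3 and 0.0187% at day 7. Of 10 macrophage markers 9 were higher at withdrawal than in control and 0 were lower (limma), and their summed linear signal ran from 2300 to 3240 at withdrawal, against 790 to 910 in control; Gpnmb was the marker at the floor in control. The sum ran from 1330 to 2280 at day 3 and from 964 to 2070 at day 7. Atf3 and the macrophage sum shared their highest array at withdrawal (replicate 2, sum 3240) and at day 3 (replicate 2, sum 2280), but not at day 7 or in control. At day 7 the highest array for Atf3, replicate 2 (3.98), had the lowest macrophage sum (964). Atf3 was nearly flat there, from 3.81 to 3.98 with 3.97 on replicate 1, so its order at day 7 tells little. With 3 or 4 arrays to a group, a shared highest array can come by chance. Of 8 endothelial markers, 1 fell and 0 rose past the threshold at withdrawal against control: Kdr, a receptor of vascular endothelial growth factor, fell (-0.77 ± 0.17, limma, adjusted p = 0.016). Of the 8 differences 0 lay above 0 (median -0.30 log2), and 6 had an unadjusted p under 0.05, where 17.0% of all genes had one. Against withdrawal, 8 lay above 0 at day 3 and 7 at day 7. Each time 6 had an unadjusted p under 0.05, where 13.9% and 13.5% of all genes had one. The endothelial sums ran from 954 to 1010 at withdrawal, against 1200 to 1310 in control, and none of the 8 was at the floor. The adrenal cortex markers summed to 4780 to 5220 at withdrawal, against 6800 to 6900 in control, with 4 of 7 lower. At day 3 against withdrawal, where Klf2 was lower, 6 of 10 macrophage, 3 of 5 zona glomerulosa and 1 of 6 fibroblast and capsule markers were lower, and 3 of 7 cortex, 1 of 8 endothelial and 1 of 4 smooth muscle markers were higher. At day 7 against withdrawal 6 of 10 macrophage markers and 1 of 6 chromaffin markers were lower, and 4 of 7 cortex and 1 of 8 endothelial markers were higher. Against control, 1 macrophage marker (Gpnmb) was higher at each of day 3 and day 7. In a whole gland, more cells of a type and more RNA per cell cannot be told apart, and the part of these markers in the results was not tested. Neutrophil markers summed to 400 on day 3 replicate 2 and to between 29.4 and 36.5 on the other day 3 arrays, and liver markers to 554 on day 3 replicate 1, against 21.3 to 111 on the other day 3 arrays. Liver sums were also 181, 117 and 134 on day 7 replicates 1, 2 and 4 and 130 on control replicate 4, with 26.4 to 30.4 at withdrawal. Klf2 at day 3 against withdrawal had an adjusted p of 0.069 without replicate 2 and 0.00361 without replicate 1. Of the other lists at withdrawal against control, 3 of 5 zona glomerulosa markers, 1 of 6 chromaffin markers and 1 of 4 T cell markers were higher, and 0 of 6 fibroblast and capsule, 0 of 6 neutrophil, 0 of 4 smooth muscle, 0 of 2 Schwann cell, 0 of 4 adipocyte, 0 of 4 kidney and 0 of 3 liver markers passed (limma). At an unadjusted p under 0.05 these were 3 fibroblast and capsule, 1 neutrophil and 1 Schwann cell marker, and 0 of the others, where 17.0% of all genes had one. The T cell marker past the threshold was Cd4, at 1.93 ± 0.52 at withdrawal and 1.22 ± 0.11 in control, around the floor. In control, 4 of 4 T cell and 4 of 6 neutrophil markers had group means under 2.

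**Figure D4:**
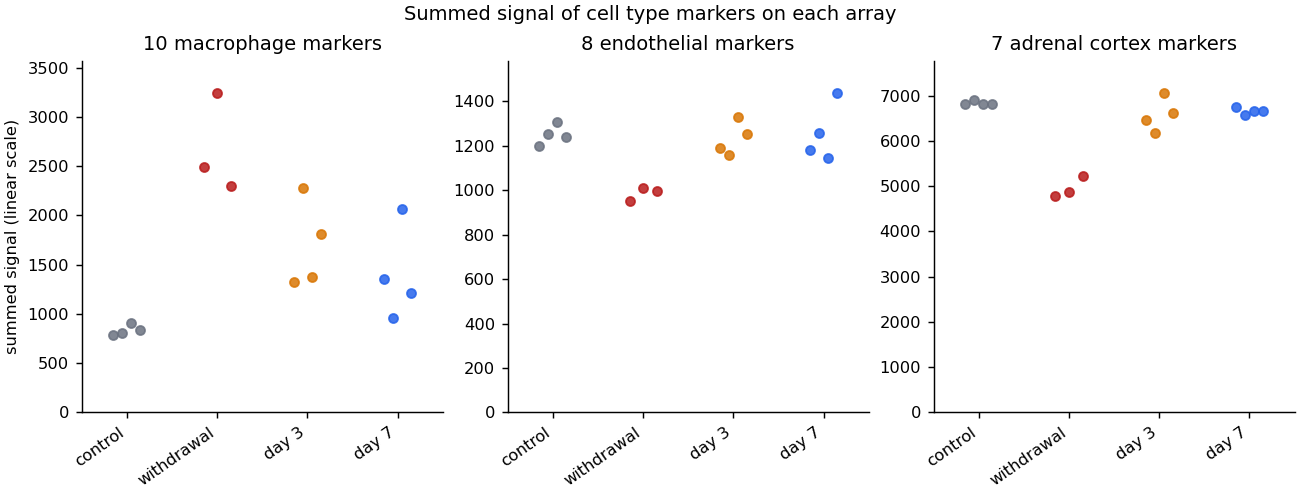
Summed linear signal (vertical axis, from 0) of 10 macrophage, 8 endothelial and 7 adrenal cortex markers on each array, by group. At withdrawal the macrophage sums (2300 to 3240) lie above control (790 to 910), and the endothelial and cortex sums lie below control.

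Lists of related genes were read in the same fit. Some of their genes lay at or below the floor in control, such as Batf (1.59), Npas4 (1.02) and Klf8 (1.005). Differences of such genes may be understated. Of 16 AP-1 and ATF relatives 0 passed in any of the 6 comparisons (limma; 0 to 3 had an unadjusted p under 0.05, where 17.0% of all genes had one at withdrawal against control and 13.9% at day 3 against withdrawal), and their median difference at withdrawal against control was 0.13 log2. Among 33 other immediate early genes 2 rose at withdrawal and 0 fell, with a median of 0.31. Over all genes 2.49% rose and 1.81% fell. At an unadjusted p under 0.05 there were 9 of the 33, 8 of them higher, where 17.0% of all genes had one. Gem, a small GTP-binding protein, averaged 6.82 ± 0.28 at withdrawal and 5.60 ± 0.41 in control (1.22 ± 0.22, adjusted p = 0.00598), and the pseudokinase Trib1 averaged 3.02 ± 0.14 at withdrawal and 2.43 ± 0.26 in control (0.59 ± 0.13, adjusted p = 0.0182). Trib1 then fell, to 2.38 ± 0.10 at day 3 (-0.65 ± 0.13 against withdrawal, adjusted p = 0.0183) and 2.41 ± 0.12 at day 7 (-0.61 ± 0.13, adjusted p = 0.0267). Gadd45b, a stress and growth arrest gene, was higher at day 7 with 8.77 ± 0.38, against 7.51 ± 0.59 at withdrawal (1.26 ± 0.30, adjusted p = 0.0465). At day 7 against control 0 of the 33 passed, and 27 had a positive difference, where 51.5% of all genes had one. At an unadjusted p under 0.05 there were 13, all 13 higher, where 3.23% of all genes were higher at that p. The 13 were read on the same arrays and are not separate results. Nr4a1, the orphan receptor induced by ACTH, differed at day 7 against control by 1.65 ± 0.52 (limma, adjusted p = 0.69). It was named after its value was seen.

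Of the 14 other Krüppel-like genes, Klf7 alone passed in any comparison. That is 1 of 14 higher at withdrawal, where 2.49% of all genes were, and 1 lower at day 3 against withdrawal, where 0.886% were. Klf7 averaged 5.40 ± 0.16 at withdrawal and 4.84 ± 0.06 in control (0.56 ± 0.10, limma, adjusted p = 0.00598), and it fell to 4.88 ± 0.15 at day 3 (-0.52 ± 0.10 against withdrawal, adjusted p = 0.0147). The median of the 14 was 0.14 log2 at withdrawal against control and -0.23 at day 3 against withdrawal. Among 14 upstream factors and corepressors (Srf, the Elk factors, MAP kinases, Mef2 factors and the Nab corepressors of Egr1 among them) 0 passed in any comparison in limma, with 1 to 3 at an unadjusted p under 0.05 in each. The share of all genes at that p ran from 5.95% (day 7 against control) to 17.0% (withdrawal against control). The 10 genes of the ATF4 arm of the integrated stress response, which is known to induce Atf3, likewise had 0 past the threshold in any comparison. There were 0 to 3 at an unadjusted p under 0.05, 0 of them at withdrawal against control, where the median was 0.08. Trib3 (1.15), Slc7a11 (1.205) and Phgdh (1.87) averaged near or below the floor in control, so that their differences may be understated. Whether this arm bore on Atf3 was not tested. Of 10 heat shock genes, the mitochondrial chaperonin Hspe1 passed once, lower at withdrawal with 9.15 ± 0.13, against 9.62 ± 0.22 in control (-0.47 ± 0.12, adjusted p = 0.0441). In that comparison 1.81% of all genes were lower.

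Genes whose levels followed each of the 4 passing genes most closely over the 15 arrays are given by Pearson's r as a description. Arrays share their groups. The genes were picked as the 3 highest of 8435 whose highest group mean was at least 4. Predicted genes, small RNAs, and olfactory, vomeronasal and antigen receptor genes were left out. A gene could thus enter through the groups where it was high. In control, Cd84 averaged 2.68, Hcst 3.35 and Fbln2 3.48. The 4 passing genes were themselves high at withdrawal, so a high r to such genes is partly built in and lends no support. For Atf3 they were Lilra5 (r = 0.893), Cd84 (0.892) and Hcst (0.889), all leukocyte receptors or adaptors. Lilra5 averaged 4.12, 5.79, 5.10 and 4.90 in control, withdrawal, day 3 and day 7, the same order of groups as Atf3. For Klf2 they were Neurl3 (r = 0.901), Ldhb (0.874) and Abcc1 (0.866). For Klf4 they were Thoc2 (0.908), Rev1 (0.864) and Neurl3 (0.861), and Neurl3 averaged 4.42, 5.09, 4.55 and 4.57 in the 4 groups in that order. For Klf6 they were Fbln2 (0.908), Crip1 (0.899) and Lsm8 (0.892), and Crip1 averaged 9.05, 9.91, 9.87 and 9.30, with day 3 close to withdrawal as for Klf6.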

How the data were processed

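The authors deposited log2 values from robust multi-array average (RMA) with oligo, as the submitters' processing notes name them; versions, annotation and filters were not stated. All 15 arrays had similar distributions (upper quartiles 4.65 to 4.77), and 0 pairs were identical. The labels name no batch, and none was examined. Of the probe sets, 22399 carried 1 symbol, 1607 several and 8730 none; only the first were used. RefSeq (GRCm38.p6) served for names, and for 807 genes with several probe sets the one with the highest mean was kept.

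The test was lmFit and eBayes of limma 3.58.1 under R 4.3.3, with 15 arrays and 4 groups in 1 model, and adjusted by Benjamini-Hochberg over 21439 genes within a comparison at a threshold of 0.05. The steps were tested on simulated data. The number of arrays limits the precision. The genes, the lists and the rule for naming genes (all 10 genes; list members past the threshold, at most 4 per comparison; the 3 closest genes by correlation) were chosen with earlier results of these data known. Alternatives were array centring, quantile normalization, a filter at a group mean of 3, trend and robust options, array weights, other probe set rules, 2 groups only, a replicate block and leaving out each array. Same-numbered arrays of different groups had correlated deviations over 0.1 in 0 of 21 pairs, so no pairing by number was seen. With 3 or 4 arrays to a group, a pairing may go unseen.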

Additional observations from a re-analysis of the deposited data

Results flagged for a closer look

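In 30 sets of 4 arrays (10 genes in 3 groups), 4 arrays lay far from the other 3 of their group by Dixon's gap test, where chance flags about 1 in 20. Fosb stood at 2.14 on day 7 replicate 4, against 1.11 to 1.22 on the other day 7 arrays, all near the floor. Atf3 stood at 1.91 on control replicate 1, with the other controls between 2.98 and 3.13. Klf4 stood at 2.59 on day 7 replicate 2, where the others read 3.17 to 3.24. Ier3 stood at 6.48 on day 7 replicate 1, where the others read 5.57 to 5.65.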

How the results depend on the processing

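Atf3 and Klf2 stayed higher at withdrawal than in control under all 7 fits without 1 array and all 10 other alternatives, and 4 of the 10 genes passed in the main fit, against 2 to 4 in the fits without 1 array. Control replicate 3 and withdrawal replicate 2 each left 2. At day 3 against withdrawal the count of 1 became 2 with the filter on dim genes, 0 with trend and robust options, 0 with a replicate block and 0 with only the 2 groups compared, and ran from 0 to 2 without 1 array (2 without day 3 replicate 1, 0 without any other). At day 7 against withdrawal the count of 0 became 3 with the filter on dim genes and 1 with array weights, and ran from 0 to 1 without 1 array (1 without withdrawal replicate 3). The F test count of 3 became 1 with a replicate block and ran from 1 to 4 without 1 array. The arrays share only a replicate number; with the replicate block Klf6 at withdrawal had an adjusted p of 0.0672 and Klf2 at day 3 one of 0.0683. The filter keeps genes with a group mean of at least 3; Klf2 enters it through withdrawal alone (3.16, against 2.50 in control, 2.58 at day 3 and 2.70 at day 7), so the counts under the filter lend its calls no support. The filter tests fewer genes; the cause of the other changes was not tested.

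Of 1044 values of single genes under an alternative, 969 kept direction and side of the threshold. In 47 cases, over 19 differences near 0, the direction turned, with adjusted p of 0.898 or more. Jun turned at withdrawal against control to -0.051 with centring on genes with 1 symbol (an alternative chosen after seeing the data), at day 3 against withdrawal to 0.017 with that centring, 0.019 with array weights and 0.013 with the block, and at day 3 against control to -0.034 with that centring. The centring also moved Egr1 at day 7 against withdrawal to 0.018 and Atf3 at day 7 against day 3 to 0. Fos at day 7 against withdrawal turned to -0.075 with the block, Ier3 at day 3 against control to 0.036 with array weights, and Klf6 at day 7 against control to -0.005 with quantile normalization. Without 1 array the ranges were, at withdrawal against control, -0.081 to 0.249 for Jun and -0.472 to 0.037 for Junb; at day 3 against withdrawal, -0.33 to 0.121 for Fos, -0.206 to 0.116 for Jun, -0.52 to 0.075 for Egr1 and -0.215 to 0.059 for Klf6; at day 7 against withdrawal, -0.11 to 0.183 for Fos, -0.21 to 0.148 for Egr1 and -0.341 to 0.025 for Ier3; at day 3 against control, -0.009 to 0.143 for Fosb, -0.094 to 0.222 for Jun, -0.049 to 0.165 for Klf2 and -0.211 to 0.132 for Ier3; at day 7 against control, -0.022 to 0.127 for Klf6; and at day 7 against day 3, -0.101 to 0.35 for Fos, -0.03 to 0.4 for Junb, -0.159 to 0.117 for Atf3, -0.13 to 0.465 for Egr1 and -0.287 to 0.133 for Klf4.

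Over all genes, the count at withdrawal against control was 921 in the main fit and from 459 (without withdrawal replicate 2) to 1251 under the alternatives. At day 3 against withdrawal it was 483 (161 to 662), at day 7 against withdrawal 404 (154 to 655), at day 3 against control 28 (4 to 91), at day 7 against control 4 (0 to 9) and at day 7 against day 3 it was 0 (0 to 7). Centring on the genes with 1 symbol shifted the median of all genes at withdrawal against control by -0.112 and gave 341 higher and 853 lower, against 534 and 387; at day 3 against withdrawal it gave 374 and 162, against 293 and 190, at day 7 against withdrawal 391 and 134, against 210 and 194, and at day 3 against control 18 and 35, against 19 and 9.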
